A study of Oryzias latipes with 15 samples.

Results

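The proteasome subunit genes of the medaka testis were followed across 5 exposure groups. They were chosen by name: a gene counted as a member when its symbol, in upper or lower case, began with psma to psmg and a digit, or was pomp. The rule took 48 of the 23028 genes in the deposited table, of which 13541 carry a symbol, so a proteasome gene without a symbol was not included. By their names, the members were 7 genes of the 20S alpha ring with psma8 set apart from them, 6 of the constitutive 20S beta ring, 5 immunoproteasome-type beta genes, 6 19S ATPases, 12 19S non-ATPases, 2 19S assembly chaperones, 4 activators and 4 20S assembly chaperones. The alpha genes held psma6b and psma6l but no psma7, and the beta genes held no psmb6. The remaining member, psme3ip1, encodes a protein that binds the activator Psme3 and is no subunit itself.

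RNA of testes of medaka, a small freshwater fish (Oryzias latipes), was sequenced in 15 libraries, with 3 biological replicates in each group. Potassium perchlorate was given at 0.01 mg/L to the low-dose group and at 10 mg/L to the high-dose group. A further group had that higher dose together with vitamin C at 3 mg/L, another had the same amount of vitamin C alone, and control fish had neither agent. Perchlorate blocks the uptake of iodide into the thyroid gland, and vitamin C acts as an antioxidant. How many fish made up a replicate, their age and the length of exposure are not stated in the sources used here. The p-values thus measure the spread between replicates, pooled over all 5 groups in the main fit.

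The proteasome degrades proteins that carry ubiquitin chains. Its 20S core is a barrel of stacked rings, in which alpha subunits form the gate and beta subunits hold the proteolytic sites, and the 19S cap binds ubiquitin, unfolds the substrate with its ATPases and feeds it into the core. Other caps (Psme1 with Psme2, Psme3, and Psme4) open the core without needing ubiquitin, and in immune cells other beta subunits replace the catalytic ones to form the immunoproteasome. In mammals Psma8 is an alpha subunit of the germ line that makes up the core of a testis-specific proteasome in meiotic cells, and Psme4 has a part in histone removal in spermatids. Production of the subunits is coordinated in mammals by the transcription factor Nfe2l1, which raises them together when proteasome activity falls.

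Values are the deposited counts normalized between libraries, which are not adjusted for gene length, so that levels were compared between groups for each gene and not between genes. The depth in genes lay between 3.21 and 21.3 M reads per library. Germ cell markers (ddx4 and piwil1 among them) and Sertoli cell markers (gsdf and amh among them) were present in all libraries, but their lists moved. In control libraries the summed germ cell markers were 27703 to 31785. They were 21200 to 27180 in low-dose libraries and 19916 to 26895 in high-dose libraries. With high dose and vitamin C they were 20762 to 29577, and with vitamin C alone 33214 to 35876. Of 5 tested, 1 rose and 1 fell at the low dose, and 1 rose and 2 fell at the high dose. The summed Sertoli markers were 7795 to 15439 in low-dose libraries and 14541 to 17260 in high-dose libraries, against 21473 to 23870 in control libraries, and 4 of 6 fell at the low dose and 2 at the high dose. The summed meiosis markers were 7414 to 16465 in low-dose libraries and 15063 to 27283 in high-dose libraries, against 20039 to 23609 in control libraries, and 5 of 7 fell at the low dose and 3 at the high dose. The low-dose libraries also held transcripts of oocytes: the summed level of 7 oocyte genes was 12222 to 84576 in low-dose libraries, highest in replicate 2 and lowest in replicate 3, against 203.6 to 243 in control libraries. That sum was 442 to 586 in high-dose libraries, 672 to 795 with high dose and vitamin C and 872 to 1271 with vitamin C alone. Against control, all 7 were called higher at the low dose, 3 at the high dose and 4 in each vitamin C group. The summed spermatid and sperm markers were 3477 to 10491 in low-dose libraries and 9340 to 12132 in high-dose libraries, against 13308 to 20490 in control libraries. In whole tissue, fewer cells of a type and less RNA per cell cannot be told apart. Abundant genes lay lower on this scale at both doses. Over the 4696 genes whose mean in control testes reached 500, among them 38 of the 48 members, the median log2 fold change was -0.31 at the low dose and -0.37 at the high dose against control, whereas over all tested genes it was -0.01 and 0.05. Over the 48 members it was -0.03 and 0.01.

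Together, the 48 members took 0.677% to 0.850% of reads in low-dose libraries, 0.817% to 0.980% in high-dose libraries, 0.759% to 0.856% with high dose and vitamin C and 0.856% to 0.953% with vitamin C alone, against 0.836% to 0.845% in control libraries. Their summed normalized counts were 75996 to 100313 in low-dose libraries and 63864 to 90444 in high-dose libraries. With high dose and vitamin C the sums were 64247 to 73548, with vitamin C alone 75939 to 88415, and in control libraries 73695 to 81665. Low-dose replicate 2 had the lowest share (0.677%) and the highest sum (100313) of all libraries. Proteasome genes were called in both directions at either dose. At the low dose 10 of the 48 (20.8%) rose and 9 (18.75%) fell against control, where 24.9% of all tested genes were called higher and 22.9% lower. At the high dose 4 (8.33%) rose and 11 (22.9%) fell, where 18.3% of all tested genes were called higher and 20.5% lower. The members' shares were thus near or below those of all genes. All 48 passed the filter on low values (a mean of at least 10) and were tested. A gene was called where limma, fitted on log2(value + 1) of all 17778 genes that passed, gave a Benjamini-Hochberg adjusted p under 0.05. The map of fold changes shows the genes of each role side by side.

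**Figure D1:**
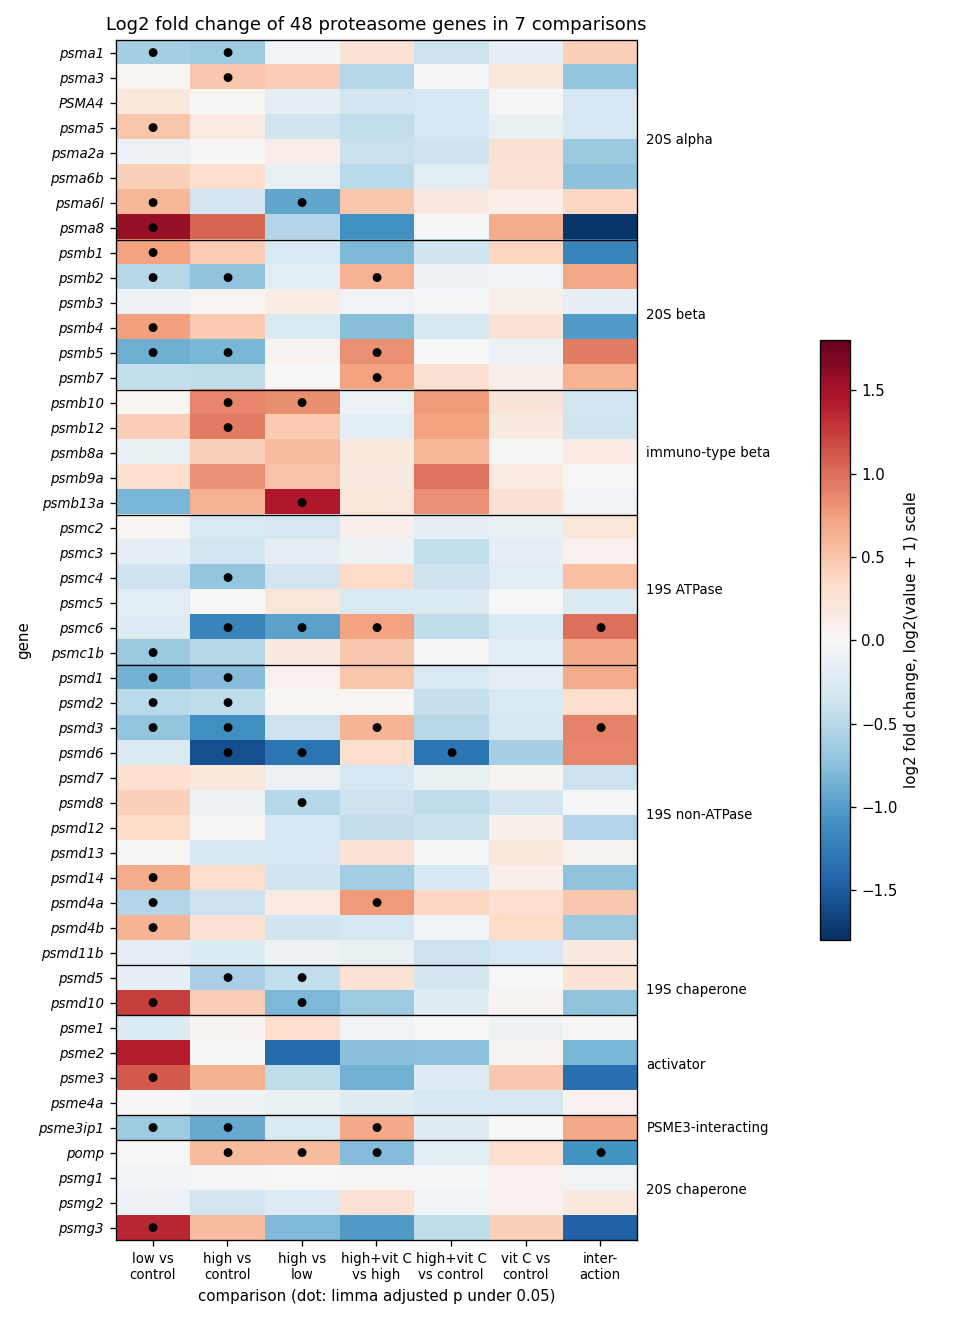
Log2 fold change (limma, scale of log2(value + 1)) of the 48 proteasome genes, in rows grouped by role, in 7 comparisons in columns. Red is higher and blue lower in the first-named group, and a dot marks a limma adjusted p under 0.05. Red and blue rows stand beside each other within most roles at the low dose, where 10 genes rose and 9 fell.

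At the low dose, the 4 members that rose most were psma8, psmg3, psmd10 (gankyrin) and psme3. The name psma8 is that of the germ line alpha subunit of mammals. Its cell type in medaka was not tested, and no gene named psma7 was in the set to compare it with. psmg3 encodes a chaperone of core assembly, psmd10 a chaperone of 19S assembly and psme3 the nuclear activator cap. By role, 1 of 4 activators, 1 of 4 20S assembly chaperones and 1 of 2 19S assembly chaperones rose. psma8 (ENSORLG00000027101) had 6848, 12844 and 2926 normalized counts in low-dose testes, against 2084, 2012 and 2322 in control testes. The groups did not overlap, but low-dose replicate 3 stood close to the controls. Its log2 fold change was 1.57 ± 0.41 (limma SE, n = 3 each), or 2.98-fold on the log2(value + 1) scale, with a limma adjusted p of 0.00591. Each SE given here rests on a spread pooled over all 15 libraries. The SD of psma8 was 4995 normalized counts in low-dose testes and 162 in control testes, so the pooled SE understates the low-dose scatter.

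psmg3 (ENSORLG00000004653) had 1054, 1929 and 461 normalized counts in low-dose testes, against 394, 356 and 397 in control testes, a log2 fold change of 1.35 ± 0.41 with a limma adjusted p of 0.0142. psmd10 (ENSORLG00000008068) had 737, 1287 and 354 in low-dose testes, against 292, 319 and 271 in control testes, a log2 fold change of 1.24 ± 0.31 with a limma adjusted p of 0.00512. psme3 (ENSORLG00000018778) had 5227, 9688 and 3337 in low-dose testes, against 2497, 2584 and 2654 in control testes, a log2 fold change of 1.10 ± 0.33 with a limma adjusted p of 0.0123. In none of these genes did the groups overlap, and in each of them replicate 2 of the low-dose group was highest and replicate 3 lowest. Low-dose values lay wholly above the controls in 12 of 48 members and wholly below in 9, beside 25.1% and 26.0% of all tested genes.

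The other 6 genes that rose at the low dose encode parts of the core and the cap, and their log2 fold changes lay between 0.50 and 0.74. From the core they were psmb4 (0.74 ± 0.25) and psmb1 (0.73 ± 0.28), which encode non-catalytic beta subunits, and the alpha genes psma6l (0.59 ± 0.20) and psma5 (0.50 ± 0.18). From the cap they were psmd14 (0.67 ± 0.21), whose product cuts ubiquitin chains off the substrate, and psmd4b (0.62 ± 0.23), a gene of the ubiquitin receptor Psmd4. The 10 risen genes were 20.8% of the members, against 24.9% of all tested genes called higher in this comparison.

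Of the 9 genes that fell at the low dose, 8 encode standard parts of the core and the cap. psmb5 (ENSORLG00000026171), the gene of the chymotrypsin-like catalytic subunit, had 1291, 1071 and 2136 normalized counts in low-dose testes, against 2634, 2947 and 2384 in control testes. The groups did not overlap, and low-dose replicate 3 again lay nearest to the controls. The log2 fold change was -0.88 ± 0.22 with a limma adjusted p of 0.0044. psmd1, a gene of a 19S scaffold subunit, had 2165, 1982 and 2930.1 in low-dose testes, against 4510.0, 4837 and 3425 in control testes, a log2 fold change of -0.86 ± 0.19 with a limma adjusted p of 0.00273. psmd3, which encodes a subunit of the 19S lid, had 1248, 1234 and 1609 in low-dose testes, against 2335, 2548 and 1845 in control testes, a log2 fold change of -0.72 ± 0.18 with a limma adjusted p of 0.00473.

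psmc1b, a 19S ATPase gene, had 1465, 1138 and 2205 in low-dose testes, against 2419.9, 2605 and 2318 in control testes, a log2 fold change of -0.66 ± 0.20 with a limma adjusted p of 0.0128. For psmd1, psmd3 and psmc1b too, the low-dose group lay wholly below the control group. The other 5 genes that fell were psme3ip1 (-0.65 ± 0.18), the alpha gene psma1 (-0.59 ± 0.19), psmd4a (-0.53 ± 0.20), the beta gene psmb2 (-0.52 ± 0.18) and the scaffold gene psmd2 (-0.49 ± 0.17). The 9 fallen genes were 18.75% of the members, against 22.9% of all tested genes called lower and 47.8% called in either direction.

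Within the 20S core, counting psma8, 5 of 14 genes rose and 3 fell, with log2 fold changes between -0.88 and 1.57. In the 19S cap, leaving its chaperones aside, 2 of 18 rose and 5 fell, between -0.86 and 0.67. Of the 5 immunoproteasome-type genes none was called at the low dose by limma. Their order among the low-dose libraries was that of the fallen genes.

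**Figure D2:**
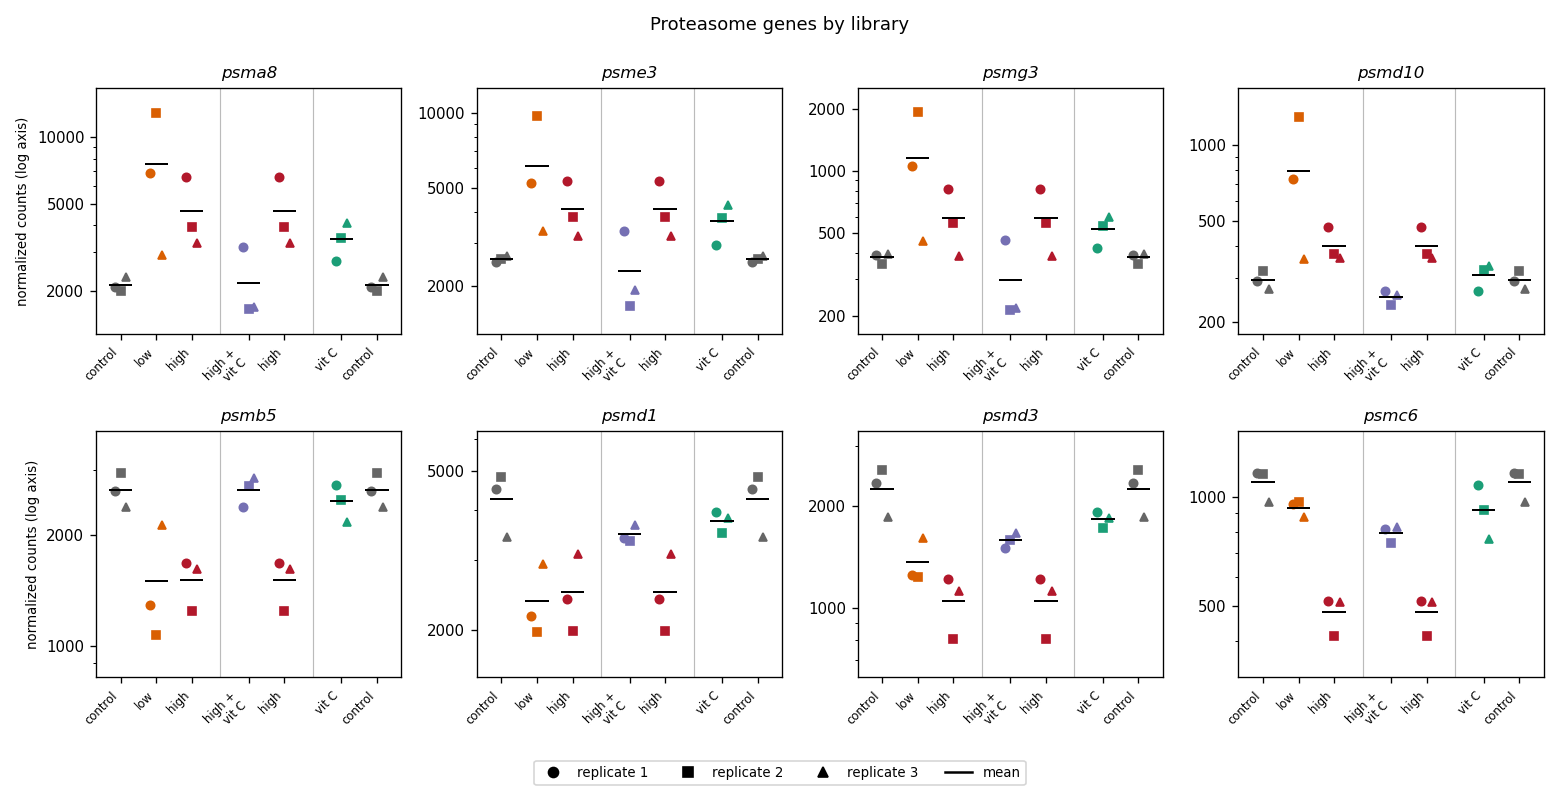
Normalized counts (log axis) of 8 proteasome genes in each library: symbols are replicates (circle 1, square 2, triangle 3) and short lines are group means. The blocks show the dose series, the high dose with vitamin C beside the high dose, and vitamin C alone beside control, so control and high-dose points are drawn in 2 blocks. The low-dose points spread widest in psma8, psme3, psmg3 and psmd10, and psmc6 is lowest in the 3 high-dose libraries without vitamin C.

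The replicates of the low-dose group were ordered alike in almost all of these genes. All 10 risen genes were highest in replicate 2, then replicate 1, then replicate 3. Of the 9 fallen genes, 8 had the opposite order, and psmd4a was also highest in replicate 3. The summed oocyte markers followed the order of the risen genes, and their part in these changes was not tested. With replicate 3 as the lone low-dose library, assumed to vary like the other groups, limma called 0 members higher and 0 lower, of 792 genes higher and 421 lower in all. Fitted with the low-dose and control libraries alone, limma called 0 higher and 1 lower. Leaving out low-dose replicate 2 left 2 higher and 4 lower, low-dose replicate 1 or control replicate 2 left 5 higher and 5 lower, and control replicate 1 left 5 higher. After rescaling on the abundant genes, which moved the median of all genes up by 0.30 on the log2 scale, 16 were called higher and 3 lower (psmb5, psmd1 and psmd3). Of all 17778 tested genes, that rescaling called 6105 higher and 2460 lower.

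psmd4a and psmd4b, a pair of genes for the same ubiquitin receptor, were called in opposite directions at the low dose by limma. The psmd4a call was lost in 11 of 16 alternatives, edgeR, DESeq2, quantile normalization and rescaling on abundant genes (log2 fold change -0.22) among them, and the psmd4b call in 7 of 16, all of which left out libraries. The pair was picked after its values were seen, and reads that match both copies may have been divided between them. The ratio of psmd4b to psmd4a within a library, which does not depend on scaling between libraries, was 1.68, 2.50 and 0.686 in low-dose testes, against 0.642, 0.678 and 0.609 in control testes. It was 1.22, 1.02 and 0.819 in high-dose testes, against the same controls. With high dose and vitamin C it was 0.638, 0.427 and 0.396, and with vitamin C alone 0.581, 0.747 and 0.704. The 3 high-dose libraries and low-dose replicates 1 and 2 lay above every library of the other 3 groups. Low-dose replicate 3 lay narrowly above the controls.

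**Figure D3:**
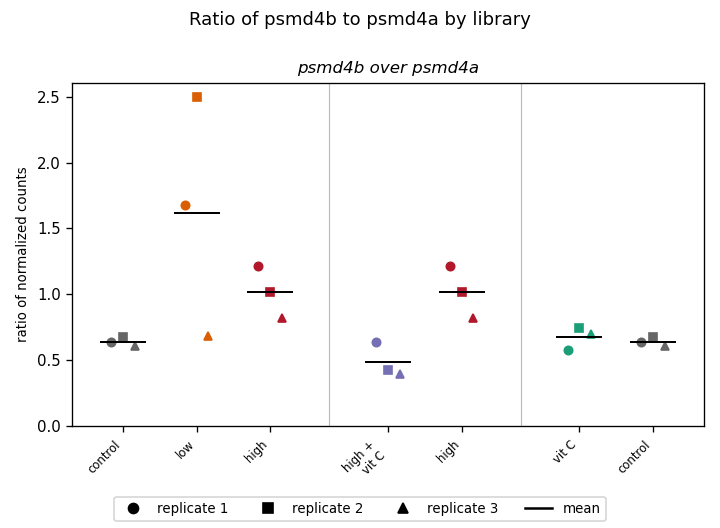
Ratio of psmd4b to psmd4a normalized counts in each library (linear axis from 0); points are replicates and short lines are group means. Ratios are 0.686 to 2.50 in low-dose testes and 0.819 to 1.22 in high-dose testes, against 0.609 to 0.678 in control testes.

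The ratio of psma8 to the catalytic core gene psmb5, also picked after values were seen, varied more widely. It was 5.30, 12.0 and 1.37 in low-dose testes and 3.95, 3.14 and 2.03 in high-dose testes, against 0.791, 0.683 and 0.974 in control testes. With high dose and vitamin C it was 1.34, 0.610 and 0.593, and with vitamin C alone 0.996, 1.40 and 1.87. These ratios compare groups only, since the genes differ in length.

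At the high dose 6 of the 18 genes of the 19S cap fell and none was called higher. In the 20S core 3 of 14 fell and 1 rose. Of all 48 members, the 11 that fell stood against 20.5% of all tested genes called lower, and the 4 that rose against 18.3% called higher (38.7% in either direction). The strongest fall was in psmd6 (ENSORLG00000008157), a gene of the 19S lid, with 54.6, 53.3 and 64.8 normalized counts in high-dose testes, against 188, 186 and 149 in control testes. Its log2 fold change was -1.58 ± 0.27, with a limma adjusted p of 0.000431. psmc6 (ENSORLG00000015435), a 19S ATPase gene, had 514, 413 and 513 in high-dose testes, against 1164, 1155 and 965 in control testes, a log2 fold change of -1.19 ± 0.16 with a limma adjusted p of 0.000114. In both genes every high-dose library lay far below every control library. High-dose values lay wholly above the controls in 10 of 48 members and wholly below in 17, beside 28.6% and 28.8% of all tested genes.

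psmd3 (ENSORLG00000020351) had 1215, 810.3 and 1117 in high-dose testes, against 2335, 2548 and 1845 in control testes, a log2 fold change of -1.11 ± 0.18 with a limma adjusted p of 0.000328. psme3ip1 had 333, 218 and 305 in high-dose testes, against 552, 538 and 493 in control testes, a log2 fold change of -0.91 ± 0.18 with a limma adjusted p of 0.00143. The groups did not overlap in either gene. The other 7 that fell had log2 fold changes between -0.82 and -0.46. They were psmb5 (-0.82 ± 0.22) and psmb2 (-0.72 ± 0.18) of the beta ring, psma1 (-0.65 ± 0.19) of the alpha ring, psmd1 (-0.78 ± 0.19) and psmd2 (-0.46 ± 0.17) of the cap's scaffold, the ATPase gene psmc4 (-0.72 ± 0.17) and the 19S assembly chaperone gene psmd5 (-0.58 ± 0.16).

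Markers of other tissues were also higher in high-dose testes than in control testes. All 5 exocrine pancreas genes rose, with summed levels of 539 to 644 in high-dose libraries, against 87.0 to 221 in control libraries. Of 4 kidney and gut epithelium genes tested 3 rose, with summed levels of 2361 to 4424 in high-dose libraries, against 153 to 1006 in control libraries. Of 2 red blood cell genes 1 rose, with summed levels of 123 to 411 in high-dose libraries, against 27.4 to 67.9 in control libraries. The part of these tissues in the proteasome values was not tested.

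Calls for psmd1, psmd3, psmd6, psmc4, psmc6 and psme3ip1 at the high dose held under all alternatives run. When the libraries were rescaled on the abundant genes, which moved the median of all genes up by 0.37 on the log2 scale, 16 members were called higher and 6 lower. Under quantile normalization 12 were called higher and 6 lower. Of all 17778 tested genes, rescaling called 5626 higher and 1836 lower, and quantile normalization 2874 higher and 3308 lower.

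The 4 genes that rose at the high dose were an assembly chaperone, an alpha subunit and a pair of immunoproteasome-type genes. pomp (ENSORLG00000005994), whose product guides assembly of the beta ring, had 4163, 2821 and 3295 normalized counts in high-dose testes, against 2227, 2321 and 2298 in control testes, a log2 fold change of 0.57 ± 0.20 with a limma adjusted p of 0.0349. psma3 had 6536, 4117 and 4867 in high-dose testes, against 3496, 3664 and 3751 in control testes, a log2 fold change of 0.48 ± 0.18 with a limma adjusted p of 0.0486. In both genes all 3 high-dose libraries lay above the controls. The psma3 call was lost in 9 of 15 alternatives, the replicate block among them, and the pomp call in 5 of 15. Without control replicate 1, control replicate 2 or high-dose replicate 1 limma called 0 members higher, without high-dose replicate 3 it called 1, and without control replicate 3 it called 2.

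The alpha gene psma8 and the activator gene psme3, which rose at the low dose, were not called at the high dose by limma. psma8 had 6633, 3902 and 3301 in high-dose testes, above the 3 control values given before, with a log2 fold change of 1.04 ± 0.41 and a limma adjusted p of 0.054. Fitted on the recovered reads, psma8 was called higher at the high dose by edgeR (log2 fold change 1.15, adjusted p 0.0383) and by DESeq2 (1.11, adjusted p 0.0214). psme3 had 5312, 3819.9 and 3194 in high-dose testes, also above the controls, with a log2 fold change of 0.64 ± 0.33 and a limma adjusted p of 0.133.

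Immunoproteasome-type genes had their highest group means in the groups given the high dose, with or without vitamin C, and a pair of them rose at the high dose against control. psmb10, the gene of an inducible catalytic subunit, had 213, 171 and 314 normalized counts in high-dose testes, against 90.1, 122 and 167 in control testes, which did not overlap. Its log2 fold change was 0.87 ± 0.32, with a limma adjusted p of 0.0415. psmb12 had 118, 79.6 and 223 in high-dose testes, against 53.0, 63.5 and 89.8 in control testes, which overlapped, with a log2 fold change of 0.92 ± 0.35 and a limma adjusted p of 0.0487. High-dose replicate 3 was the highest of its group in both genes.

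The 3 others, psmb8a, psmb9a and psmb13a, were not called against control. psmb8a had 310.3, 228 and 347 in high-dose testes, against 164, 224 and 274 in control testes, with a limma adjusted p of 0.312. psmb9a had 68.9, 52.7 and 122 in high-dose testes, against 27.6, 52.3 and 54.3 in control testes, with a limma adjusted p of 0.14. psmb13a had 43.1, 41.1 and 104 in high-dose testes, against 30.8, 44.9 and 35.5 in control testes, with a limma adjusted p of 0.346. In all 5 genes the high-dose mean was above the control mean and replicate 3 was highest in the high-dose group. At the low dose psmb8a had 219, 115 and 305, psmb9a 57.3, 28.8 and 90.1, psmb10 139, 76.7 and 185, psmb12 90.0, 62.3 and 138, and psmb13a 28.7, 7.19 and 39.0. All 5 were lowest in low-dose replicate 2, the library richest in oocyte transcripts and lowest in summed immune cell markers (1685), and each overlapped the controls.

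With high dose and vitamin C, psmb8a had 225, 405 and 389, psmb9a 63.8, 94.7 and 102, psmb10 168, 218 and 252, psmb12 96.6, 116 and 123, and psmb13a 54.5, 69.5 and 74.3. With vitamin C alone, psmb8a had 192, 223 and 249, psmb9a 33.0, 61.8 and 53.1, psmb10 137, 170.1 and 126, psmb12 64.9, 82.5 and 79.0, and psmb13a 33.6, 68.9 and 37.8. By limma, none of the 5 was called between either vitamin C group and the groups it was set against. All 5 belong to 1 gene family, and reads that match more than 1 of them may have been divided among them.

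Immune cell markers were also higher in part at the high dose. Of 9 such genes, 5 rose and 1 fell against control, and their summed level was 3376 to 5087 in high-dose libraries and 3211 to 4441 with high dose and vitamin C, against 2878 to 3497 in control libraries. In low-dose libraries it was 2380, 1685 and 3513 by replicate, and in high-dose libraries 3890, 3376 and 5087. All 5 immunoproteasome-type genes had this order in both groups, with replicate 3 highest and replicate 2 lowest. In the other groups the order of the immune sum was not shared by all 5. Of 6 antigen presentation genes measured, tapbp.1 fell at the high dose (log2 fold change -0.51) and none was called higher by limma. At the low dose erap1b (-0.95 ± 0.26) and stat1a (-1.23 ± 0.27) fell. The part of immune cells in the immunoproteasome values was not tested.

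**Figure D4:**
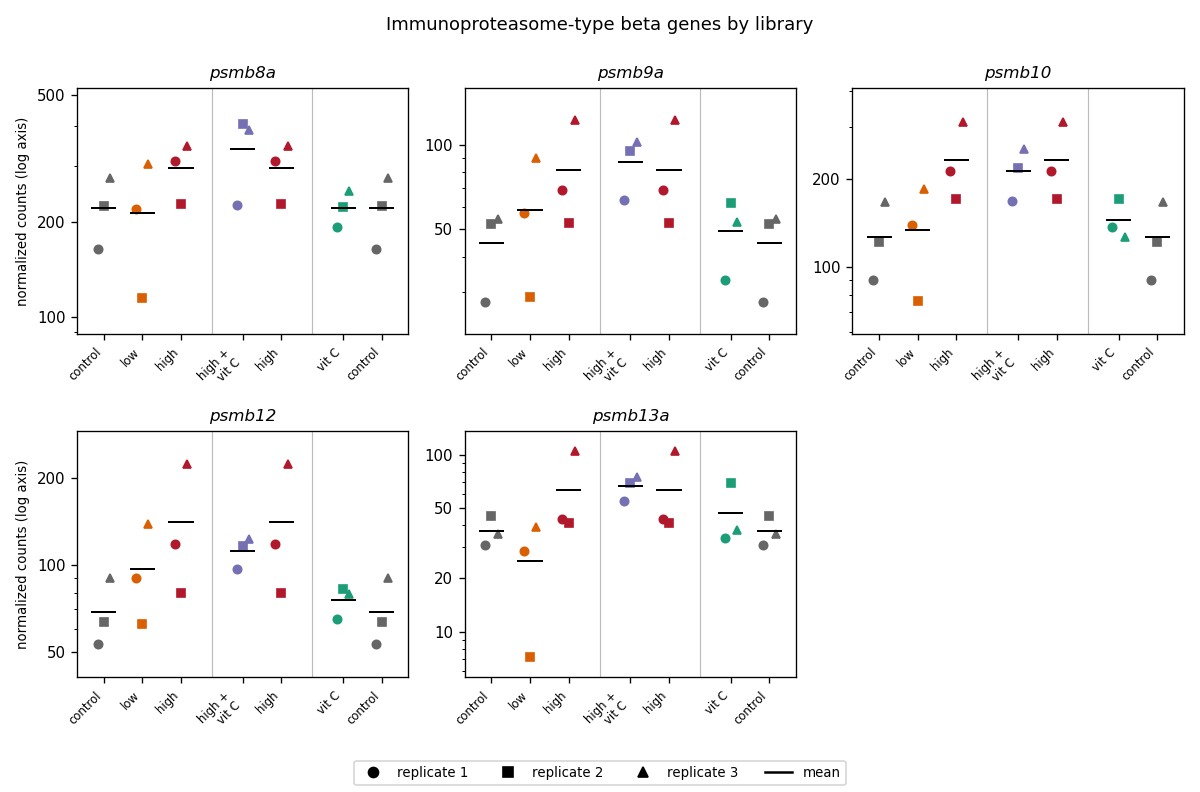
Normalized counts (log axis) of the 5 immunoproteasome-type beta genes in each library; symbols are replicates (circle 1, square 2, triangle 3) and short lines are group means. Control and high-dose points are drawn in 2 blocks. All 5 genes are lowest in low-dose replicate 2 among the low-dose libraries and highest in replicate 3 among the high-dose ones.

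Set directly against each other, the doses differed in 9 members, of 48.4% of all tested genes called. At the high dose 3 of the members stood above the low dose and 6 below it, against 22.4% and 26.1% of all tested genes. psmd6 had 54.6, 53.3 and 64.8 normalized counts in high-dose testes, against 135, 223 and 99.1 in low-dose testes, with a log2 fold change of -1.31 ± 0.27 and a limma adjusted p of 0.00138. psmc6 had 514, 413 and 513 in high-dose testes, against 952, 966 and 877 in low-dose testes, with a log2 fold change of -0.96 ± 0.16 and a limma adjusted p of 0.000379. In both genes the dose groups did not overlap. Between the doses 6 of the 48 members lay wholly lower at the high dose and 2 wholly higher, beside 22.4% and 20.5% of all tested genes. The psmc6 call held under all alternatives run.

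psma6l had 187, 159.9 and 268 in high-dose testes, against 383, 431 and 339 in low-dose testes, a log2 fold change of -0.93 ± 0.20 with a limma adjusted p of 0.00214. psmd10 had 474, 371 and 359 in high-dose testes, against 737, 1287 and 354 in low-dose testes, a log2 fold change of -0.80 ± 0.31 with a limma adjusted p of 0.0456. The psmd10 groups overlapped through low-dose replicate 3, and with that library as the lone low-dose one the value was 0.17. The other 2 lower genes were psmd8 (-0.51 ± 0.20) and psmd5 (-0.44 ± 0.16). psma8 was not called between the doses, with a log2 fold change of -0.53 ± 0.41 and a limma adjusted p of 0.288.

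Higher at the high dose than at the low dose were psmb13a (log2 fold change 1.44 ± 0.51, limma adjusted p 0.029), psmb10 (0.84 ± 0.32, limma adjusted p 0.0414) and pomp (0.57 ± 0.20, limma adjusted p 0.0301). The psmb13a call was lost without low-dose replicate 2 (7.19 normalized counts), without high-dose replicate 3 (104) and under quantile normalization. The psmb10 and pomp calls were also lost under some alternatives. pomp had 2484, 1929 and 2486 in low-dose testes, below all 3 high-dose values. Of the antigen presentation genes erap1b (1.28 ± 0.26), tap2a (1.12 ± 0.40) and stat1a (0.67 ± 0.27) were also higher at the high dose. With the 2 dose groups fitted alone, limma called 0 members higher and 2 lower, and with low-dose replicate 3 as the lone library 0 higher and 1 lower. Without low-dose replicate 2 it called 0 higher and 3 lower, without low-dose replicate 3 it called 7 and 15, without high-dose replicate 3 it called 0 higher, without high-dose replicate 1 it called 1 higher, and without high-dose replicate 2 it called 3 lower.

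Vitamin C given with the high dose went with higher levels of 7 members and a lower level of 1 than the high dose alone. Of all tested genes 7.74% were called higher and 2.64% lower, 10.4% in all. The median log2 fold change was 0.17 over the abundant genes, -0.10 over all tested genes and -0.08 over the members. Deviations of same-numbered replicates of these groups were weakly correlated (0.361, 0.198 and 0.124). A fit over all libraries with the replicate number as a block was therefore made beside the main one. psmb5 had 2385, 2721 and 2863 normalized counts with high dose and vitamin C, against 1681, 1243 and 1622 with the high dose alone, a log2 fold change of 0.82 ± 0.22 with a limma adjusted p of 0.0268. psmd4a had 2544, 2948 and 3255 with high dose and vitamin C, against 1686, 1454 and 2029 with the high dose alone, a log2 fold change of 0.76 ± 0.20 with a limma adjusted p of 0.025. psmc6 had 816, 744 and 822 with high dose and vitamin C, against 514, 413 and 513 with the high dose alone, a log2 fold change of 0.73 ± 0.16 with a limma adjusted p of 0.0103.

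psmb7, the gene of the trypsin-like catalytic subunit, had 2096, 2597 and 2777 with high dose and vitamin C, against 1809.8, 1150.0 and 1610.4 with the high dose alone, a log2 fold change of 0.72 ± 0.20 with a limma adjusted p of 0.0298. In these 4 genes the groups did not overlap. The other 3 higher genes were psme3ip1 (0.69 ± 0.18), psmb2 (0.63 ± 0.18) and psmd3 (0.61 ± 0.18). Wholly above the high dose alone lay 11 of 48 members and wholly below it 12, beside 21.3% and 19.1% of all tested genes. The psmd3 call was lost in the fit with the replicate block, in which limma gave an adjusted p of 0.0574, and the block then left 6 members called higher.

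pomp was the member called lower, with 2594, 1667 and 1779.5 with high dose and vitamin C, against 4163, 2821 and 3295 with the high dose alone. The groups did not overlap, and the log2 fold change was -0.78 ± 0.20 with a limma adjusted p of 0.0237. psma8 had 3185, 1661 and 1698 with high dose and vitamin C, against 6633, 3902 and 3301 with the high dose alone, with a log2 fold change of -1.08 ± 0.41 and a limma adjusted p of 0.1. psme3 had 3333, 1664 and 1925 with high dose and vitamin C, against 5312, 3819.9 and 3194 with the high dose alone, with a log2 fold change of -0.87 ± 0.33 and a limma adjusted p of 0.1. The psma8 groups did not overlap, and the psme3 groups did.

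The kidney and gut epithelium markers differed between these groups, with a summed level of 118 to 150 with high dose and vitamin C, against 2361 to 4424 with the high dose alone, and their part in these differences was not tested. Leaving out replicate 3 of the group given both agents left 0 members called higher and 0 lower by limma, and leaving out its replicate 2 left 1 and 0. Without its replicate 1 limma called 4 lower, without high-dose replicate 2 it called 0 higher, and without high-dose replicate 1 it called 0 lower. Under quantile normalization 2 were higher and 10 lower, and by DESeq2 7 were higher and 5 lower. Over all tested genes, quantile normalization called 1727 of 17778 higher and 906 lower, and DESeq2 called 2062 of 17773 higher and 1631 lower.

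With high dose and vitamin C, limma called psmd6 alone of the members against control. Of all tested genes 2.36% were called higher and 1.26% lower (3.62% in all). Of 48 members, 19 lay wholly below the controls and 5 wholly above them, beside 22.0% and 17.6% of all tested genes. Those above were psmd4a and the immunoproteasome-type genes psmb9a, psmb10, psmb12 and psmb13a. Log2 fold changes of the 5 immunoproteasome-type genes lay between 0.60 and 0.98, and limma called none of them. The median log2 fold change was -0.22 over the members, -0.21 over the abundant genes and -0.05 over all tested genes. psmd6 had 80.0, 70.7 and 60.4 with high dose and vitamin C, against 188, 186 and 149 in control testes, which did not overlap. The log2 fold change was -1.29 ± 0.27 with a limma adjusted p of 0.0186. The psmd6 call was lost without control replicate 1 or 2, or replicate 2 or 3 of the group given both agents. At an unadjusted p under 0.05, limma had 2 members higher and 8 lower. The share of all tested genes at that unadjusted threshold was not taken, so these counts have no background. By adjusted p, edgeR and DESeq2 called 0 higher. In psmb5 the difference was 0.00 ± 0.22 on the log2 scale, and in psmc6 it was -0.46 ± 0.16 with a limma adjusted p of 0.108. psma8, psme3 and pomp had log2 fold changes of -0.04 ± 0.41, -0.23 ± 0.33 and -0.21 ± 0.20.

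Vitamin C alone changed no member against control by limma, where 0.304% of all tested genes were called higher and 0.101% lower (0.405% in all). At an unadjusted limma p under 0.05 there was 1 member lower and none higher, and the share of all tested genes was not taken. By adjusted p, edgeR and DESeq2 also called 0. psma8 had 2734, 3499 and 4070.3 with vitamin C alone, against 2084, 2012 and 2322 in control testes, which did not overlap, with a log2 fold change of 0.67 ± 0.41 and a limma adjusted p of 0.669. psme3 had 2934, 3783 and 4265 with vitamin C alone, against 2497, 2584 and 2654 in control testes, and also did not overlap. pomp had 2328, 2867 and 3275 with vitamin C alone, against 2227, 2321 and 2298 in control testes, and was higher in each library.

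Whether the high dose acted differently in the presence of vitamin C was tested with the interaction, the difference between the high-dose effect with vitamin C (over vitamin C alone) and without it (over control). It was called for 3 members, 2 with a positive and 1 with a negative value, against 5.6% and 2.47% of all tested genes (8.08% in all). The median interaction was 0.29 over the abundant genes, -0.08 over all tested genes and -0.02 over the members. The interaction was 0.99 ± 0.23 on the log2 scale for psmc6 (limma adjusted p 0.0209), 0.90 ± 0.25 for psmd3 (limma adjusted p 0.0421) and -1.07 ± 0.28 for pomp (limma adjusted p 0.0345). In the fit with the replicate block the psmd3 call was lost (limma adjusted p 0.0576), and it was lost in 14 of 21 alternatives in all. psmc6 had 1074, 916 and 763 with vitamin C alone, and psmd3 1916, 1717 and 1844. For psma8 it was -1.75 ± 0.58, with a limma adjusted p of 0.0694, and for psme3 -1.36 ± 0.46, with a limma adjusted p of 0.0772. Fitted on the recovered reads, DESeq2 called both (psma8 -1.76, adjusted p 0.0244, and psme3 -1.34, adjusted p 0.0423). Without control replicate 1 or 2, or replicate 2 or 3 of either vitamin C group, limma called 0 interactions of either sign; without high-dose replicate 2 it called 0 positive, and without high-dose replicate 1 it called 0 negative. Without high-dose replicate 3 it called 1 positive and 0 negative, without replicate 1 of vitamin C alone 1 positive, and without replicate 1 of the group given both agents 1 positive and 3 negative. The contrasts share libraries, since the control and high-dose testes enter several of them.

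The activator caps other than psme3 showed no call by limma in any of the 7 comparisons. psme4a, the gene of the large nuclear cap, had 1246, 1320.4 and 965 in low-dose testes and 1014, 1033 and 1198 in high-dose testes, against 1243, 1224 and 995 in control testes. It had 943, 888 and 946 with high dose and vitamin C and 905 to 958 with vitamin C alone. psme1 had 733, 460.1 and 734 in low-dose testes and 796, 665 and 877 in high-dose testes, against 679.7, 769 and 781 in control testes. It had 668, 787 and 776 with high dose and vitamin C and 659, 673 and 766 with vitamin C alone. The groups of both genes overlapped at either dose.

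psme2, whose product pairs with that of psme1 in 1 cap, was below 15 normalized counts in every library but low-dose replicates 1 and 2. It had 36.8, 55.1 and 10.5 normalized counts in low-dose testes and 8.62, 13.5 and 8.50 in high-dose testes, against 9.54, 9.97 and 10.1 in control testes. The low-dose log2 fold change was 1.42 ± 0.58 with a limma adjusted p of 0.0556, and edgeR (1.76, adjusted p 0.0198) and DESeq2 (1.76, adjusted p 0.0115) called it on the recovered reads. With high dose and vitamin C psme2 had 8.08, 7.79 and 2.45, and with vitamin C alone 5.31, 14.2 and 14.2.

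In all, 18 of the 48 members were called in no comparison by limma, 15 in 1, 8 in 2, 4 in 3 and 3 in 4. The same tally was not made over all tested genes, so these counts have no background to be read against. The 18 held most ATPases beyond the ones named (psmc2, psmc3 and psmc5), 4 genes of the 19S lid (psmd7, psmd11b, psmd12 and psmd13), 4 core genes (psma2a, PSMA4, psma6b and psmb3), the core assembly chaperones psmg1 and psmg2, the caps psme1, psme2 and psme4a, and the immunoproteasome genes psmb8a and psmb9a.

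Of 30 further genes of proteasome control and substrate delivery, listed with earlier results of these data known, 23 were measured. At the high dose 4 rose and 12 fell against control, where 18.3% of all tested genes were called higher and 20.5% lower. Their median log2 fold change was -0.54, beside 0.01 for the members, 0.05 for all tested genes and -0.37 for the abundant genes. Among the fallen were adrm1 (-1.29 ± 0.19), a ubiquitin receptor of the 19S cap, nfe2l1a (-1.32 ± 0.44), a gene of the transcription factor that raises proteasome genes in mammals, rad23aa (-1.23 ± 0.19), a shuttle that brings ubiquitinated proteins to the proteasome, and uba1 (-1.12 ± 0.17), the enzyme that activates ubiquitin. vcp (-0.74 ± 0.17), an ATPase that extracts proteins for degradation, and akirin2 (-0.77 ± 0.25), which in mammals carries proteasomes into the nucleus, fell as well.

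Among those that rose at the high dose were rps27a (0.87 ± 0.17), a ubiquitin fusion gene, sem1 (0.84 ± 0.24), a small subunit of the 19S lid outside the name rule, and zfand5a (0.60 ± 0.17). At the low dose 6 of the 23 rose and 6 fell, where 24.9% of all tested genes were called higher and 22.9% lower, with a median of -0.02. Those that rose included uchl5 (1.26 ± 0.33), a deubiquitinase of the cap, and ngly1 (0.98 ± 0.22), which deglycosylates Nfe2l1 in mammals, and uba1 (-0.91 ± 0.17) and vcp (-0.81 ± 0.17) were among those that fell. Between high dose with vitamin C and high dose alone, adrm1 (1.04 ± 0.19), rad23aa (0.85 ± 0.19) and bag6 (0.72 ± 0.17), a chaperone that hands proteins to the proteasome, were higher, and sem1 (-0.95 ± 0.24) was lower.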

How the data were processed

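Testis RNA of 15 libraries was sequenced, with NEBNext Ultra II libraries per the labels' protocols. The submitters' processing notes name DESeq2 1.34.0 beside STAR 2.7.7a and, for reads, fastp 0.23.2. Genome build, counting step and strand setting: not given in the sources used here. The authors deposited normalized counts (used as a signal scaled between libraries). Divided by the smallest step of its library, 100% of 345420 values came out whole (within 0.001), and the reads recovered so, 3.21 to 21.3 M per library, served the alternatives. On them edgeR called 4750 genes higher and 3299 lower, and DESeq2 4809 and 3925, at the low dose against control.

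limma 3.58.1 (R 4.3.3, trended empirical Bayes) was fitted on log2(value + 1) of the 17778 genes whose mean reached 10, over all 15 libraries, with 7 contrasts and Benjamini-Hochberg adjustment over all genes. The members and lists were chosen with earlier results of these data known. Full values were given for up to 4 called members with the largest rise and 4 with the largest fall per comparison, and for psma8, immunoproteasome-type, activator and pomp genes. Symbols came from the deposited table. No sequence or gene length was used, so levels are not compared between genes.

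Same-numbered replicates were checked for shared deviations from their group means. In the high-dose groups with and without vitamin C the 3 correlations were 0.361, 0.198 and 0.124, all above 0.1. In no other 2 groups did all 3 exceed it. The main fit held the group alone, without pairs. A fit over all 15 libraries with the replicate number as a block was run as an alternative. It set the same replicate effects for all groups. Replicates differed beyond counting noise (chi-square per degree of freedom 3.67 to 158.5). Data were simulated for high dose against control with 17778 genes. Of 67 genes changed 2-fold 35.8% were recovered, of 66 changed 4-fold 84.8%, and of 67 changed 1.5-fold 0%. Of 85 calls 5 were false. No other genes were changed there, whereas 38.7% of tested genes were called in the data. The adjusted p threshold was thus harder to pass in the simulation, and these rates do not carry over to the data. Alternatives were another pseudocount, filter, scaling, tool, block or set of libraries.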

Additional observations from a re-analysis of the deposited data

Results flagged for a closer look

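A test of the difference between 2 effects, the high dose in the presence and in the absence of vitamin C, marked 3 proteasome genes. They were 6.25% of the members, beside 8.08% of all tested genes. The interaction was 0.99 for psmc6 and 0.90 for psmd3, both positive, and -1.07 for pomp, all on the log2 scale. The psmd3 call was lost with the replicate block (limma adjusted p 0.0576) and in 14 of 21 alternatives in all. The psmc6 call was lost in 7 of 21 and the pomp call in 8 of 21. In each of the 3 genes the 2 effects were measured against different groups, vitamin C alone and control.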

How the results depend on the processing

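Of 55 called results of single members, 7 kept their call under every alternative run (at the high dose against control psmd1, psmd3, psmd6, psmc4, psmc6 and psme3ip1, and psmc6 between the doses), and 48 lost it under at least 1. The alternatives were not the same for all comparisons, since those with the low dose alone had the lone low-dose library. The psmd1 call at the low dose and the psmd6 call between the doses were lost only there. The low-dose calls of psma8, psmb5, psmd3 and psmd10 were lost only there and with the groups alone. Of 122 results followed, 1 reversed, psmd10 between the high and the low dose, at 0.17 with low-dose replicate 3 as the lone low-dose library. The replicate block left 1 member with a positive interaction, psmc6, where 2 were called without it, since psmd3 lost its call. Apart from this the block moved no count of members by more than 1.5 times. Calls also lost with the block were psma3 at the high dose, psmd8 between the doses and psmd3 for vitamin C added to the high dose.

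At the low dose, rescaling on abundant genes gave 16 members higher and 3 lower with a median of 0.28, quantile normalization a median of -0.13, edgeR 5 lower, the groups alone 0 and 1, and the lone library 0 and 0. At the high dose, no filter or a mean of at least 50 gave 2 higher, quantile normalization 12 and 6 with a median of 0.21, and rescaling 16 and 6 with a median of 0.38. Between the doses, quantile normalization gave 6 higher and a median of 0.22, the groups alone 0 and 2, and the lone library 0 and 1. For high dose with vitamin C against high dose, quantile normalization gave 2 higher and 10 lower, rescaling 5 lower, DESeq2 5 lower and the groups alone 7 lower. Against control, high dose with vitamin C gave 4 higher and 8 lower with the groups alone, 2 lower by DESeq2, and medians of -0.0724 (quantile), 0.00191 (rescaled) and -0.12 (edgeR). Vitamin C alone gave 1 higher with the groups alone and a median of 0.16 rescaled. The interaction gave 1 positive with no filter; 1 positive and 8 negative with quantile normalization; 1 and 4 with a median of -0.26 rescaled; 4 and 6 by DESeq2; and 8 and 11 with the groups alone. These counts are of members alone, and the counts over all tested genes moved with the setting as well. For the interaction, quantile normalization called 937 of 17778 genes positive and 592 negative, and the groups alone gave 2838 and 2217. The causes were not tested.

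Leaving out 1 library at a time, members higher and lower ranged over 2 to 14 and 4 to 12 at the low dose (median -0.10 to 0.021), 0 to 4 and 9 to 12 at the high dose (-0.12 to 0.10), 0 to 7 and 3 to 15 between the doses (-0.29 to -0.04), 0 to 7 and 0 to 4 for vitamin C with high dose against high dose (-0.21 to 0.05), 0 to 0 and 0 to 1 for both agents against control (-0.32 to -0.16), 0 to 0 and 0 to 0 for vitamin C alone (-0.02 to 0.13), and 0 to 2 and 0 to 3 for the interaction (-0.20 to 0.12).

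Over all genes, the low-dose and control groups fitted alone gave 1905 higher and 1345 lower, and DESeq2 gave 2062 and 1631 for high dose with vitamin C against high dose, where limma gave 4423 and 4076, and 1376 and 469. Members with fewer than 100 normalized counts, such as psme2 and psmb13a, rest on few reads. This holds also for psmd6 in the libraries given the high dose, with 53.3 to 64.8 without vitamin C and 60.4 to 80.0 with it. Changes of 1.5-fold were not recovered on simulated data, in which far fewer genes were changed than were called here.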
